A study of Homo sapiens with 2 samples.

Results

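The genes described here are MYC and 42 genes of ribosome biogenesis, taken from a list of 43 names by matching each name to the probe sets whose annotation gives a single gene. This found 36 of the 43 names on 79 probe sets, out of 18392 genes in all. Expression was measured in PC3, an established human line of prostate cancer cells that came from a metastasis in bone. One array held the DMSO control, with RNA of cells that received only the solvent. The second held RNA of cells treated with 10 µM fluphenazine, an antipsychotic of the phenothiazine class that the series examined against castration-resistant prostate cancer. The labels name no genetic change in either culture and give no duration of treatment, and with 1 array for each treatment no value has an error between cultures and no difference was tested.

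Ribosomes are built in the nucleolus. RNA polymerase I transcribes the precursor of the ribosomal RNAs, small nucleolar ribonucleoproteins (snoRNPs) guide its chemical modification, and large sets of factors cut and fold it into the small and the large subunit. The transcription factor MYC binds the DNA motif called the E-box with its partner MAX, and the genes of ribosome biogenesis are among its best-known targets. Prostate cancers often carry high MYC, and their growth depends on the supply of ribosomes.

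Of the 36 members with a value, 35 reached the expression floor, a log2 signal of 6.19 on at least 1 of the 2 arrays. This is the median of the higher value over all genes. Where a gene had several probe sets, the brightest stands for it and is called its main probe set. RRP9 alone lay just under the floor. For NOP56, DKC1, BOP1 and PPAN every probe set in the annotation names several genes, so no value is given. DDX18, GNL3 and EBNA1BP2 were not analysed here.

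As a group these genes barely differed between the arrays. Over the 35 members above the floor the median difference, fluphenazine minus DMSO on the log2 scale, was -0.01, and it was -0.01 over all 9196 genes above the floor. The members ranged from -0.29 to 0.14. There were 19 members lower and 16 higher on the fluphenazine array, or 54.3% lower, against 51.8% of all genes. Only PES1 and MRTO4, both factors of the large subunit, were at least 1.2-fold lower, a threshold of 0.26 on the log2 scale. That is 2 of 35 members, while 4.69% of all genes were lower by that much. No member was 1.2-fold higher, against 4.84% of all genes. Counted in either direction, 5.71% of members and 9.53% of all genes passed. None reached 1.5-fold in either direction, as 0.576% of all genes did. The members' shares are thus near or below the background. With all probe sets of a gene averaged, the median was -0.054 over 30 members above the floor and -0.019 over all genes. With only the probe sets above the floor averaged, the median was -0.011 over 35 members and -0.014 over all genes. The SD was 0.13 over members and 0.17 over all genes, which ranged from -1.28 to 1.99. The interquartile range was not narrower for the members, at -0.16 to 0.05, against -0.10 to 0.09 over all genes.

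**Figure D1:**
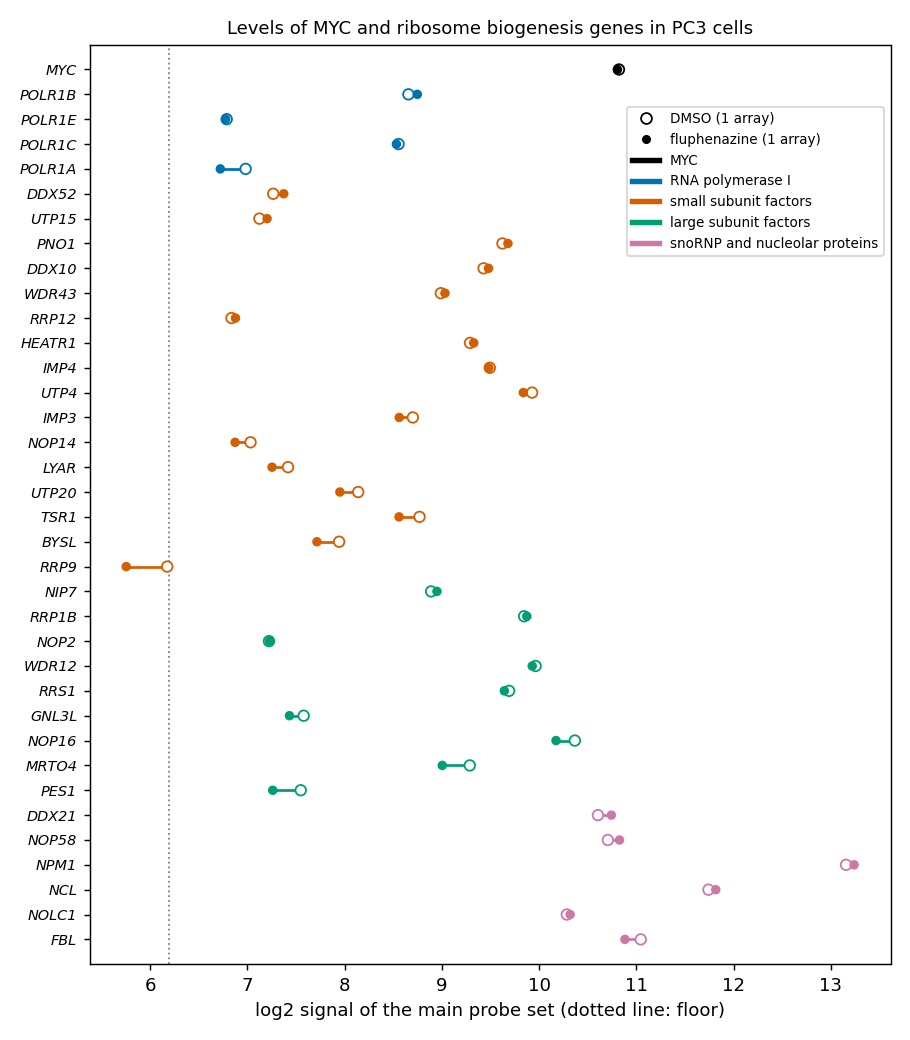
Log2 signal (horizontal axis) of the main probe set of each of the 36 members on the DMSO array (open circles) and the fluphenazine array (filled circles), coloured by role, with 1 array for each treatment and no error bars. Most pairs of circles nearly coincide, and the widest gaps are those of RRP9 (6.17 against 5.75), PES1 (7.55 against 7.26) and MRTO4 (9.29 against 9.00).

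The culture was checked against marker genes. The 5 epithelial markers KRT8, KRT18, KRT19, EPCAM and CDH1 had log2 signals between 9.28 and 12.72 on both arrays, while 2 of 10 measured markers of blood, endothelial and fibroblast cells, PECAM1 and COL1A1, lay above the floor. The median log2 signal over all 47693 probe sets was 4.74 with DMSO and 4.73 with fluphenazine. Spiked-in bacterial RNAs with poly-A tails read lower with fluphenazine at 24 of 24 probe sets, with a median difference of -0.22. The 5' and 3' control probe sets of ACTB differed by -0.13 and 0.00, and those of GAPDH by 0.06 and 0.03. The part of these controls in the small differences below was not tested.

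Promoter sequences are shown for 5 members to show where the E-box lies in members from the low and the high end of the differences; other low members have a window without it. The E-box CACGTG, which reads the same on both strands, was searched in the RefSeq promoter windows (GRCh38.p14), 250 bases before to 50 after each gene's start. Windows were given for 33 of the 43 names. The windows below are those of the 4 members with the lowest differences among the measured members that hold the motif, and of PNO1, which has the highest difference among them. They read 5′ to 3′ on the gene's strand, with CACGTG in capitals. RRP9 lies at chr3:51941855-51942154 on the minus strand, PES1 at chr22:30591861-30592160 on the minus strand, MRTO4 at chr1:19251555-19251854 on the plus strand, BYSL at chr6:41921249-41921548 on the plus strand and PNO1 at chr2:68157638-68157937 on the plus strand.
RRP9: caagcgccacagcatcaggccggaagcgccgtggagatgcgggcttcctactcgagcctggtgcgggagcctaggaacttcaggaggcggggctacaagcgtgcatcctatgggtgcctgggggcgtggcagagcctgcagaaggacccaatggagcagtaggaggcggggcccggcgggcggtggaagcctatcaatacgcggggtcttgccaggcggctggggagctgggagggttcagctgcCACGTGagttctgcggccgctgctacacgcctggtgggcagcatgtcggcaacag
PES1: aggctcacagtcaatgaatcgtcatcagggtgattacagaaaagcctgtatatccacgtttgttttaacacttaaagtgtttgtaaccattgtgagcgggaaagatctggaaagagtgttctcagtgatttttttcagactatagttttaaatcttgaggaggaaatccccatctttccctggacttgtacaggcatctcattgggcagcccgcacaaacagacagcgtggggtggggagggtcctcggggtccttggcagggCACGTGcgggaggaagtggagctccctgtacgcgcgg
MRTO4: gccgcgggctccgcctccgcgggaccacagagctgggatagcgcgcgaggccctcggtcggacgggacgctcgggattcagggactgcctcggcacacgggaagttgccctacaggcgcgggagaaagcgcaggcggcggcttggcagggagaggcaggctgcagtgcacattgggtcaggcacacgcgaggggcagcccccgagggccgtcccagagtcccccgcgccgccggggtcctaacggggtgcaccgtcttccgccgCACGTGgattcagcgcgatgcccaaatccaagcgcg
BYSL: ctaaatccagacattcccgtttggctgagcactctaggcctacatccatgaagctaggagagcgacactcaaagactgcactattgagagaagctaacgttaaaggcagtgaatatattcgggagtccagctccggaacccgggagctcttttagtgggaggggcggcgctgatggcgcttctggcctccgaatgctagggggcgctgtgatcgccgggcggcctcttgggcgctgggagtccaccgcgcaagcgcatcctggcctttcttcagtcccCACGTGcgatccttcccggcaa
PNO1: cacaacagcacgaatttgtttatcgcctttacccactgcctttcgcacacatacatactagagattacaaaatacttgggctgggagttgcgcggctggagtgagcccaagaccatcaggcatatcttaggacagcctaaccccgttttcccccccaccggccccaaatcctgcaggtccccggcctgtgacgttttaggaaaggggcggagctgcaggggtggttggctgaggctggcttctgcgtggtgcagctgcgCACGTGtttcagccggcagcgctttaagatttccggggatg
In all 5 windows the motif lies close to the start site: its first base is at -5 in RRP9, 14 in PES1, 15 in MRTO4, 29 in BYSL and 10 in PNO1, counted from 1 at the start site. The differences of these genes follow with their groups.

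MYC itself was at the same level on both arrays. Its only probe set had a log2 signal of 10.82 with DMSO and 10.80 with fluphenazine, a difference of -0.02 or 1.01-fold. The name of this probe set ends in _s_at, a design that can match several transcripts, and there is no second one to set beside it.

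The 4 measured subunits of RNA polymerase I did not move together. POLR1A, the largest subunit and part of the catalytic centre, had log2 signals of 6.98 with DMSO and 6.72 with fluphenazine on its main probe set, a difference of -0.26 that stops just short of 1.2-fold (1.1975-fold). Its other 2 probe sets gave -0.04 and -0.08, so all 3 were lower but the main one by the most. The one at -0.08 (6.22 against 6.14) reached the floor with DMSO alone. POLR1B, the second-largest subunit, was at 8.65 and 8.75, a difference of 0.09. The other 2 probe sets of POLR1B above the floor gave 0.07 and -0.03, and a dim one under the floor gave -0.58 (5.62 against 5.04). POLR1C, a subunit shared with RNA polymerase III, was at 8.55 and 8.53, and its second probe set differed by 0.03. POLR1E, a subunit that takes part in initiation and elongation, was at 6.79 and 6.78. The group's median difference was -0.02, with 3 of 4 subunits lower, and -0.11 over 3 subunits with all probe sets averaged. With only the probe sets above the floor averaged, the median was -0.003 over 4 subunits.

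Factors of the small subunit split into a lower and a higher set of nearly equal size, with 8 of 15 members above the floor lower. The median was -0.01, and -0.089 over 13 members with all probe sets averaged. With only the probe sets above the floor averaged, the median was -0.01 over 15 members. The lowest were BYSL, TSR1 and UTP20. BYSL, which acts late in the maturation of the pre-40S particle, had log2 signals of 7.94 with DMSO and 7.71 with fluphenazine, or -0.23, on its single probe set. TSR1, another late factor of that particle, was at 8.77 and 8.56, or -0.21. Of its other 3 probe sets, 2 gave -0.13 and -0.10 and the third 0.04, so the sign was shared by 3 of 4. UTP20, a very large component of the small subunit processome (the particle in which the precursor RNA is first cut), was at 8.14 and 7.95, or -0.19.

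The remaining lower members of this group were the zinc finger protein LYAR (-0.16, and -0.12 on a second probe set), NOP14 (-0.16), IMP3 (-0.14), UTP4 (-0.09 on both of its probe sets) and IMP4 (-0.01). NOP14, IMP3 and IMP4 are components of the processome. UTP4 belongs to the subcomplex that binds the nascent precursor RNA first, as do UTP15, WDR43 and HEATR1. On their main probe sets those other 3 members of the subcomplex were slightly higher, at 0.08, 0.04 and 0.04. The other 2 probe sets of HEATR1 above the floor gave -0.06 (9.09 against 9.03) and 0.02, so its sign was not shared, and a probe set of UTP15 far under the floor gave -0.16. RRP9, a protein of the snoRNP that directs the first cuts, had the largest difference of any main probe set, at 6.17 with DMSO and 5.75 with fluphenazine, or -0.42 (1.34-fold lower). Both values lay under the floor of 6.19, where probe sets scatter widely, and it has no second probe set.

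The higher members of the small subunit group were led by DDX52, an RNA helicase, at 7.26 with DMSO and 7.37 with fluphenazine, or 0.11. Its 3 probe sets, all above the floor, gave 0.14, 0.11 and -0.15 and so did not share a sign. UTP15 followed at 7.12 and 7.20. PNO1, which positions the nuclease for the last cut of the small subunit RNA, was higher on all 3 of its probe sets, at 0.06, 0.12 and 0.10. The helicase DDX10 was at 0.05 and RRP12, an export factor of the particle, at 0.04. One of the 4 dim probe sets of RRP12 under the floor gave 0.80, from 3.56 to 4.36, the largest difference of any of the 79 probe sets.

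Large subunit factors held both members that passed 1.2-fold. PES1, a subunit of the PeBoW complex with BOP1 and WDR12, had log2 signals of 7.55 with DMSO and 7.26 with fluphenazine, a difference of -0.29 (1.22-fold lower). Its second probe set, far under the floor, gave 0.18 (2.78 against 2.96). MRTO4, which holds the place of a stalk protein on the immature large subunit, was at 9.29 and 9.00, or -0.28 (1.22-fold lower). Its second probe set was also at -0.28 (7.49 against 7.21), so MRTO4 was the member with the largest difference that 2 probe sets above the floor shared.

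The partner of PES1, WDR12, was at 9.96 and 9.93, a difference of -0.03, so the 2 measured subunits of PeBoW were not lower to the same extent. NOP16 was at 10.37 and 10.17, or -0.19, while its second probe set above the floor gave 0.00. GNL3L, a nucleolar GTPase, was at -0.15 and -0.10 on its 2 probe sets above the floor. The second of these (6.24 against 6.14) reached the floor with DMSO alone. RRS1, which brings in the RNA and proteins of the central protuberance, was at -0.05. The higher members were NIP7 (8.89 against 8.95, or 0.06, and 0.12 on a second probe set), RRP1B (0.03) and the RNA methyltransferase NOP2 (7.22 against 7.23, or 0.00). In all, 6 of 9 members were lower and the median was -0.05, with a mean of -0.10.

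The snoRNP and nucleolar proteins were higher on the fluphenazine array in 5 of 6 measured members, with a median of 0.08, while 48.2% of all genes were higher. DDX21, a helicase that acts in both transcription and processing of ribosomal RNA, was at 10.60 with DMSO and 10.74 with fluphenazine, or 0.14, and at 0.02 on its second probe set. NOP58, a core protein of the box C/D snoRNPs, was at 10.71 and 10.83, or 0.12. NPM1, a histone and ribosome chaperone that forms the outer layer of the nucleolus, was at 13.16 and 13.24, or 0.08. The other 2 probe sets of NPM1 gave 0.05 and -0.03. NCL (nucleolin) was at 11.74 and 11.82, or 0.08, and NOLC1, a snoRNP chaperone, at 10.28 and 10.32, or 0.03. The other 2 probe sets of NOLC1, both dimmer but above the floor, gave -0.02 and -0.26, so only its main one was higher. FBL, the methyltransferase that works beside NOP58 in the same particle, was the exception at 11.04 and 10.88, or -0.16, so these 2 core proteins lay on opposite sides. With all probe sets of a gene averaged, the group's median was 0.020, and with only those above the floor averaged it was 0.054.

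**Figure D2:**
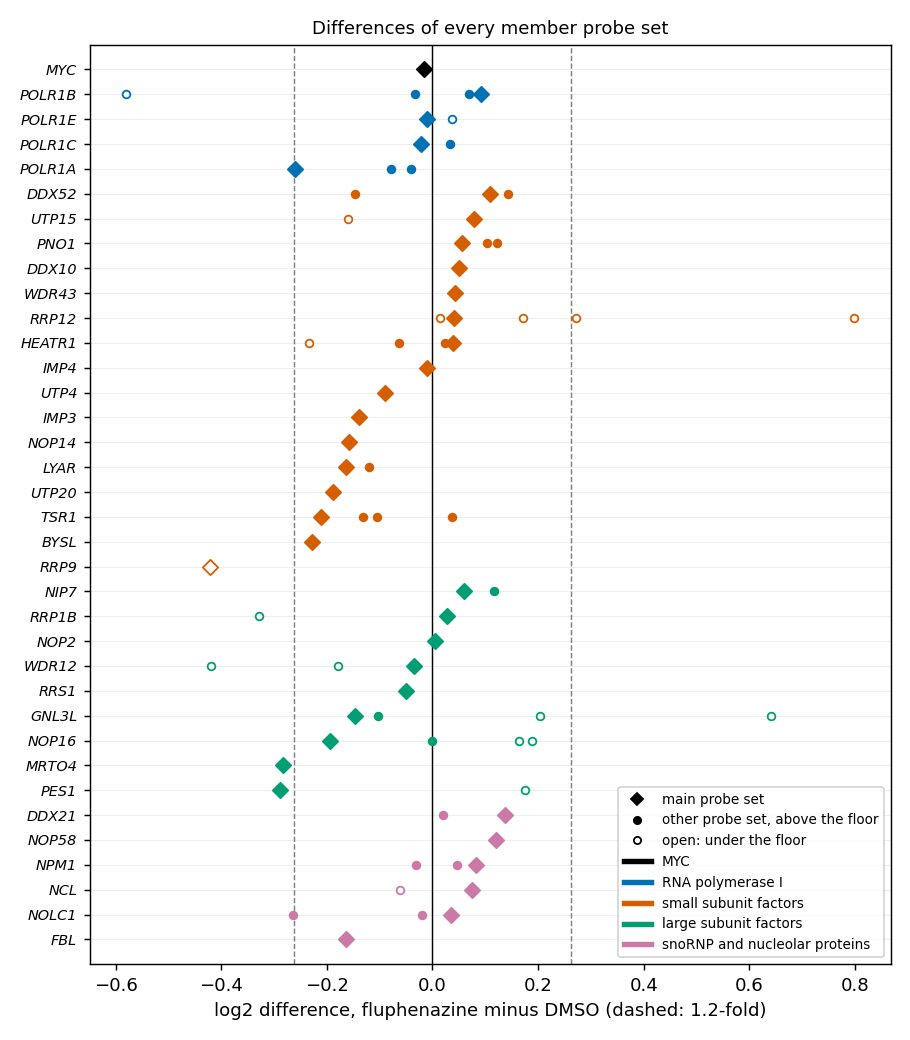
Log2 difference, fluphenazine minus DMSO (horizontal axis), of all 79 member probe sets, with diamonds for the main probe set of a gene, circles for its others, and open symbols for probe sets under the floor. The 60 probe sets above the floor lie between -0.29 and 0.14, while the 19 under it spread from -0.58 to 0.80.

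Probe sets of a gene, which share the RNA and are no replicates of the treatment, give the only measure of noise. More than 1 probe set reached the floor in 16 members, and in 9 of these they all shared a sign. The like share over all genes was not computed, so this count has no background beside it. Among the 9 are POLR1A and GNL3L, each with a probe set that reached the floor with DMSO alone. NOP16 is another, with a second value of only -0.0012. The pooled SD of the differences between probe sets of a member was 0.09, against 0.13 over the 3668 genes of the array for which it could be computed. The widest spread within a member above the floor was 0.30, for NOLC1. Under the floor the spread was wider, with an SD of 0.35 over 19 probe sets, and 4 of them were 1.2-fold lower and 3 higher. Neither number contains the variation between separate cultures.

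The dimmer members had a lower median than the brighter ones, though both sets held lower and higher members. Among the 17 dimmer members the median difference was -0.14, with 11 lower, and among the 18 brighter ones it was 0.03, with 8 lower, among them MRTO4, NOP16 and FBL. All genes split at the same signal, a mean log2 value of 9.01, had medians of -0.02 and 0.01. Across genes, which are not replicates, mean log2 signal and difference correlated with r = 0.35 over the 35 members and r = 0.07 over all genes above the floor. The part of signal level in the differences between role groups was not tested; the snoRNP and nucleolar group, with a median DMSO signal of 10.87, is the brightest group and the only one with a median above 0.

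**Figure D3:**
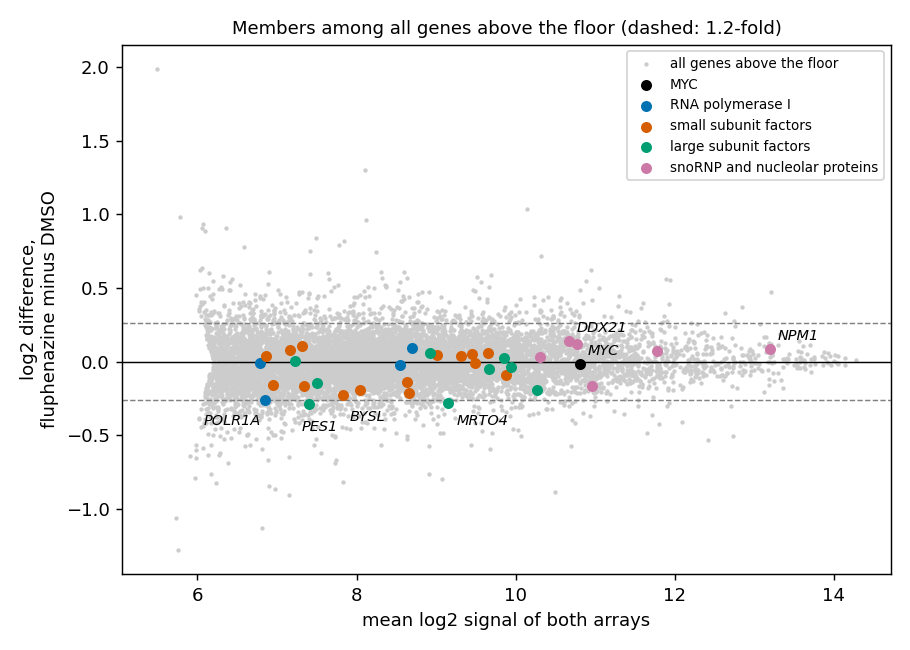
Mean log2 signal of both arrays (horizontal axis) against the log2 difference, fluphenazine minus DMSO (vertical axis), for the 9196 genes above the floor (grey) and the 35 members above it (coloured by role), with dashed lines at 1.2-fold. All members but PES1 and MRTO4, which sit just below the lower dashed line, lie between the dashed lines.

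Beside the members, lists of other genes of the same machinery were examined. Of the other small subunit factors 24 of 40 above the floor were lower, with a median of -0.03. The acetyltransferase NAT10 was the lowest, at 8.40 with DMSO and 8.06 with fluphenazine (-0.35), and NOC4L the highest, at 0.14. FCF1 was also 1.2-fold lower on its main probe set (-0.32), but its second probe set above the floor gave 0.13. Of the other large subunit factors 27 of 44 were lower, with a median of -0.02. The helicase DDX56 was the lowest at -0.26, and RSL24D1, a placeholder protein of the large subunit, was the highest, at 10.19 and 10.50 (0.31) and 0.11 on its second probe set. Of 44, 2 were 1.2-fold higher (RSL24D1 and URB2, at 0.27) and none lower.

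The other subunits and initiation factors of RNA polymerase I had a median of -0.06, with 10 of 17 lower and none past 1.2-fold. TCOF1, which recruits the polymerase to the ribosomal genes, was the lowest at 6.99 and 6.80 (-0.18), and -0.22 on its second probe set above the floor. The highest was POLR1F at 0.12. UBTF, the factor that marks active ribosomal genes, was at -0.15 on its main probe set, and its other 4 gave -0.39, -0.26, -0.52 and -0.04. All 5 probe sets of UBTF were thus lower, though 3 of them lay under the floor. The one at -0.39 (6.33 against 5.94) reached the floor with DMSO alone. UBTF is named after its values were seen. The initiation factor RRN3 was at 0.03. Other snoRNP proteins and assembly factors had a median of -0.08, with 9 of 14 lower, from TGS1 at -0.21 to ZNHIT6 at 0.17.

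Among partners and regulators of MYC the differences were wider than among the members. The median was 0.03, with 8 of 13 higher. FBXW7, the ubiquitin ligase subunit that sends MYC to degradation, was the highest, at 6.03 with DMSO and 6.52 with fluphenazine (0.49), but its DMSO value lay under the floor, so that it counts as above the floor through the fluphenazine array alone. Its other 3 probe sets, all under the floor, gave 0.27, 0.02 and -0.02, the last of them the brightest of the 4 with DMSO. Without FBXW7 the highest difference of the list was 0.38. MXD1, which competes with MYC for MAX, was at 7.30 and 7.68 (0.38), and a second probe set gave 0.39 (6.16 against 6.56) but reached the floor with fluphenazine alone. MXD3, a relative of MXD1, was the lowest at 7.06 and 6.72 (-0.34). MAX was at 0.14 and -0.04 on its 2 probe sets above the floor, and MNT, another competitor, at 0.22, with 0.24 on a dim probe set. MXD1, MAX and MNT are named after their values were seen.

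**Figure D4:**
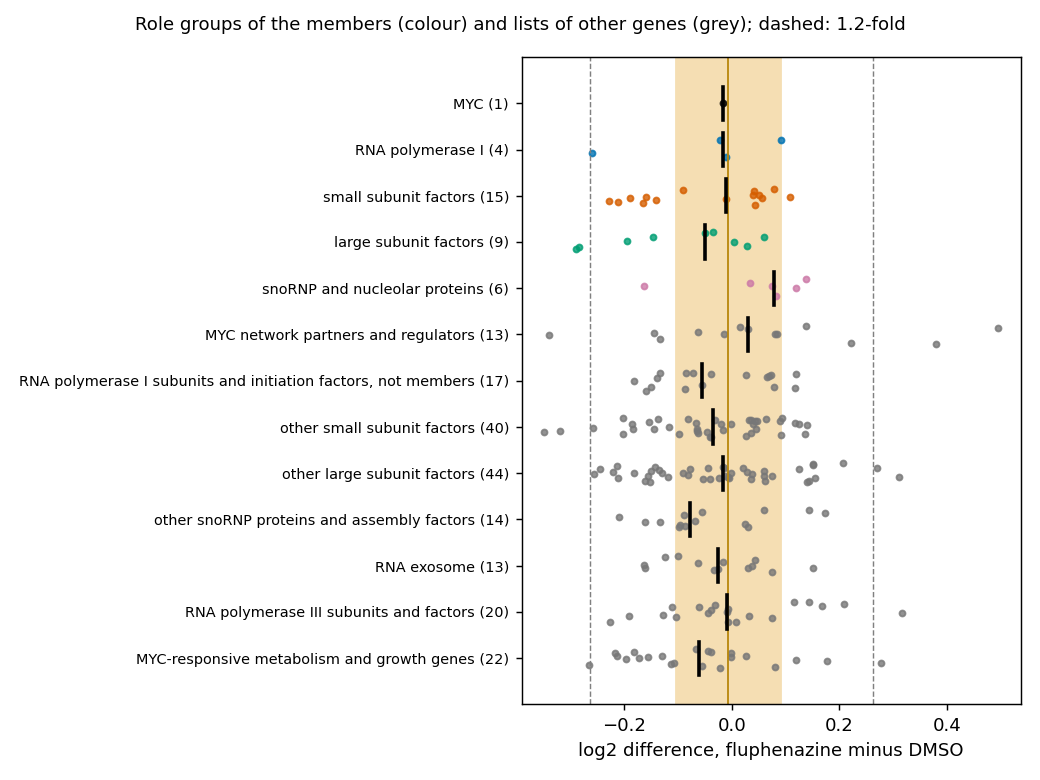
Log2 difference, fluphenazine minus DMSO (horizontal axis), of each gene above the floor in the role groups of the members (coloured) and in lists of other genes (grey), with the number of genes in brackets and a black bar at each median; the shaded band is the interquartile range of all genes above the floor, from -0.10 to 0.09. Every median lies inside the band, and the widest scatter is that of the MYC network list, from -0.34 to 0.49, or to 0.38 without FBXW7, which reached the floor with fluphenazine alone.

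The E-box was common near the start of the members. CACGTG was found in the first listed window of 13 of 33 members with a window, or 39.4%. It was found in 7.43% of the 27305 genes with a window and in 10.6% of the 7700 genes above the floor with one. The motif was not particular to the members. Above the floor, 11 other small subunit factors had it and 24 lacked it. These numbers were 10 and 30 for other large subunit factors, and 10 and 11 for metabolism and growth genes that respond to MYC. They were 6 and 9 for RNA polymerase III, but 1 and 14 for other RNA polymerase I genes, 1 and 9 for other snoRNP genes and 1 and 10 for the RNA exosome. In 12 of the 13 it lay within 50 bases of the start site, whereas among all 2030 genes with the motif it lay that close in 784. The related motif CACGCG, searched with its reverse complement CGCGTG, was found in 9 of 33 members, against 11.4% of all genes and 19.4% of those above the floor; it overlaps no CACGTG. A match is only the presence of these letters and shows no binding.

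Members with the E-box had a lower median than those without it. The 11 members above the floor that hold CACGTG had a median of -0.16, with 8 lower, and the 16 that have a window without it had a median of 0.01, also with 8 lower. Of the 28 members with a window and a value, the 3 lowest (RRP9, PES1 and MRTO4) all hold the motif, but RRP9 lies under the floor and is not in these medians. The next lowest, POLR1A at -0.26, has a first listed window without it, as have TSR1 (-0.21), NOP16 (-0.19), LYAR (-0.16), GNL3L (-0.15) and IMP3 (-0.14). The other holders above the floor were BYSL, UTP20, FBL, NOP14, UTP4 and IMP4, all lower, and NOP2, WDR43 and PNO1, all slightly higher. A further listed window of LYAR holds the motif, as does one of DDX21 (0.14). Counting any listed window, the medians were -0.16 with the motif (13 genes) and 0.01 without it (14 genes). Over all genes above the floor the medians were -0.0034 with the motif (814 genes) and -0.008 without it (6886 genes). Of these genes, 50.9% of those with the motif and 52.0% of those without it were lower. For the other small subunit factors the medians were -0.05 with the motif (11 genes) and -0.03 without it (24 genes), and for the other large subunit factors -0.02 (10 genes) and -0.04 (30 genes). The 2 sets of members had like signal levels, with median log2 values of 9.01 and 8.81. Among brighter members the medians were -0.05 with the motif (6 genes) and 0.05 without it (7 genes), and among dimmer ones -0.19 (5 genes) and -0.14 (9 genes). Without the probe sets whose names end in _s_at or _x_at, the medians were -0.090 with the motif (9 members) and -0.029 without it (10 members). The split by motif was made after the values were known and has no test.

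**Figure D5:**
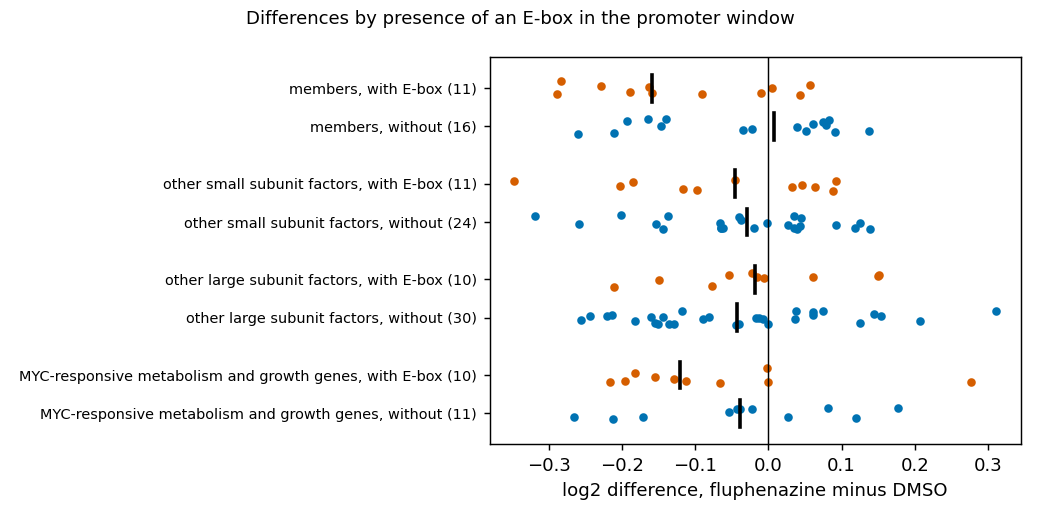
Log2 difference, fluphenazine minus DMSO (horizontal axis), of genes above the floor, for the members and for 3 lists of other genes. Genes with the E-box in their first listed promoter window are orange, and those without it there are blue. The number of genes is in brackets, and black bars mark the medians. The bars lie at -0.16 and 0.01 for the members, at -0.05 and -0.03 for the other small subunit factors, at -0.02 and -0.04 for the other large subunit factors, and at -0.12 and -0.04 for the MYC-responsive genes.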

How the data were processed

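Gene expression was measured on 2 arrays, 1 of PC3 cells given DMSO and 1 of PC3 cells given 10 µM fluphenazine. The deposited values are 1 log2 signal per probe set and array, from 1.60 to 14.28, judged to be log2 from that range; centring is not stated. The submitters' processing notes name RMA, Transcriptome Analysis Console 3.1 and Affymetrix Expression Console 1.4 in no stated order. For the probe sets, the genome build was not given in the sources used here. Such a normalization shows changes relative to other genes, not in total RNA.

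The table held 47693 probe sets. The platform annotation of 2016 named a single gene for 37151, which gave 18392 genes, 18354 of them with symbols updated through the gene identifier; 1668 probe sets with several genes were left out. The probe set with the highest mean of both arrays stood for a gene. Genes were kept when the higher value reached the median over genes, 6.19, which left 9196. The difference is fluphenazine minus DMSO, without any test, and calls are folds of 1.2. Members, lists and thresholds were chosen with earlier results of these data known. The rule for named genes was to name every member, with both arrays' values for MYC, the RNA polymerase I subunits, members past 1.2-fold and the 2 highest and 2 lowest of each group, and the highest and lowest gene of each other list. No member had probe sets above the floor spanning over 0.5. Counting was tested on simulated data with changes of 0.5 (log2) in 200 genes, larger than any member difference above the floor. The choice of probe set was not tested, because all probe sets of a changed gene were given the same change. The number of arrays limits the precision. Alternatives were 4 scalings, 3 ways to choose or average probe sets, 2 floors, 2 folds and 2 list summaries. Python 3.11.15, numpy 2.4.6, pandas 2.3.3 and statsmodels 0.14.6 were used. Promoter windows are RefSeq's for GRCh38.p14, the first listed for a gene.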

Additional observations from a re-analysis of the deposited data

How the results depend on the processing

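Of 106 recomputed values, 87 lay within 1.5 times a count or within the noise of a median (the pooled SD of probe sets divided by the root of the number of genes). The 4 scalings moved no value beyond that and left PES1 and MRTO4 as the members past 1.2-fold. The same held with only the probe sets above the floor averaged. Some of the 87 could not differ: MYC, with 1 probe set, stayed at -0.0156 under both averages and both floors. Others changed sign within the noise. RNA polymerase I was at 0.0346 over 2 subunits with the stricter floor. Small subunit factors were at 0.0141 over 14 without the member farthest from the median. With all probe sets of a gene averaged, the median over members was -0.0539, over RNA polymerase I -0.113, over small subunit factors -0.0894, over snoRNP and nucleolar proteins 0.0197, and over members without CACGTG -0.0265, while 1 member (MRTO4) was past 1.2-fold. With the mean in place of the median, all members were at -0.0459, large subunit factors at -0.100 and small subunit factors at -0.0516. With the stricter floor 1 member (MRTO4) passed 1.2-fold, small subunit factors were at -0.0504 and members without CACGTG at 0.0449. Without a floor small subunit factors were also at -0.0504. Without probe sets whose names end in _s_at or _x_at, members with and without CACGTG were at -0.0903 and -0.0286, and MYC had no value. Counting probe sets above the floor gave 34 of 60 lower and 4 past 1.2-fold; at 1.5-fold and at 2-fold no member passed (0). The E-box alternatives and the count over probe sets were chosen after seeing the data. No paired analysis was possible because each treatment has 1 array. Leaving out a replicate could not be done for the same reason.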

Other observations

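Genes of metabolism and growth known to respond to MYC were lower in 17 of the 22 above the floor, out of 23 measured, with a median of -0.06, where 51.8% of all genes were lower. The lowest was C1QBP, a mitochondrial matrix protein, at 11.28 with DMSO and 11.01 with fluphenazine (-0.27), and -0.14 on its second probe set. PPAT, the first enzyme of purine synthesis, was at -0.22 and -0.05 on its 2 probe sets above the floor. The highest was SLC7A5, an amino acid transporter, at 9.44 and 9.72 (0.28), followed by ODC1, the first enzyme of polyamine synthesis, at 0.18. Of the 22, 1 gene was 1.2-fold lower and 1 higher. Within this list the 10 genes with CACGTG in the promoter window had a median of -0.12, with 9 lower, and the 11 without it -0.04, with 7 lower. ODC1 and PPAT are named after their values were seen.

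The RNA exosome, which trims ribosomal RNA precursors, had a median of -0.02 with 8 of 13 genes lower, from EXOSC2 at -0.16 (and -0.17 on a second probe set) to the nuclease DIS3 at 0.15, and none past 1.2-fold. RNA polymerase III subunits and factors, which make the smallest ribosomal RNA and the transfer RNAs, had a median of -0.01 with 12 of 20 lower. POLR3K was the lowest at -0.23 and CRCP the highest at 0.32, but the second probe set of CRCP gave 0.01.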
